A study of Mus musculus with 11 samples.

Results

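The genes described here encode the proteins of the cytosolic ribosome. They were taken from the table of raw counts by symbol, as every gene whose name was Rps or Rpl followed by a number and at most the letter a or x, together with Rps3a1, Rpsa, Rplp0, Rplp1 and Rplp2; names ending in -ps, which mark pseudogenes, were left out. This gave 77 genes of the 48299 in the table, 31 of the small subunit and 46 of the large subunit. All 77 passed the filter on low counts, with 504 to 59397 counts per library, so none had to be set aside.

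A ribosome is built from a small subunit, which reads the messenger RNA, and a large subunit, which joins amino acids. Each ribosome holds, with few exceptions, a single copy of each ribosomal protein, and the cell makes these proteins in matched amounts from genes scattered over the chromosomes. Their messenger RNAs are short, abundant and begin with a run of pyrimidines, the 5′ terminal oligopyrimidine (TOP) motif, through which mTOR signalling and the protein LARP1 control their translation. The same genes have left many processed pseudogenes, copies of the spliced messenger RNA inserted elsewhere in the genome.

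The libraries came from WFU3, a mouse prostate epithelial stem cell line, in 4 groups that cross a knockdown of Map3k7, the gene of the kinase TAK1, with a knockdown of Chd1, the gene of a chromatin remodeller. The 2 shMap3k7 libraries came from Map3k7 clone 1 (replicate 1, passage 49) and clone 7 (replicate 2, passage 47), each with a control hairpin in place of a Chd1 hairpin. The 4 shDouble libraries came from the same clones with a Chd1 hairpin added: replicates 1 and 2 were clone 1 with constructs 96526 and 96528 (passage 49), and replicates 3 and 4 were clone 7 with the same constructs (passage 48). The 2 shChd1 libraries were control line 4 with construct 96526 (replicate 1, passage 52) or 96528 (replicate 2, passage 50). The 3 shControl libraries were an unnumbered line at passage 30 (replicate 1), line 4 at passage 52 (replicate 2) and line 5 at passage 52 (replicate 3). Every library carried hairpins from lentiviral vectors; those of shControl replicate 1 were marked puro and neo, the others GFP and puro. The numbered lines were grown from single isolated clones, so each knockdown of Map3k7 rests on 2 clones and the Chd1 knockdown alone on 1 line. Whether the libraries of a group are separate cultures is not stated, so p-values measure only the spread between these samples, which may be technical.

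The start sites of 4 genes whose values are given below are printed to show the pyrimidine run by which this gene family is known, 2 with it and 2 without. A C followed by at least 4 pyrimidines, starting within 20 bases of the annotated start on the gene's own strand, was found for 46 of the 57 genes that have a promoter in the RefSeq table (GRCm38.p6), or 80.7%, against 53.3% of the 26968 other genes. The share was 82.6% for the small subunit and 79.4% for the large subunit. The sequences run from 60 bases before the annotated start to 25 bases from it, 5′ to 3′ on the gene's strand, and capitals mark the pyrimidine run.
Rps6 (chr4:86857343-86857427, minus strand): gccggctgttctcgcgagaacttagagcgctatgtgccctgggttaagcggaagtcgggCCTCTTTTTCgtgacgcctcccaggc
Rps12 (chr10:23787185-23787269, minus strand): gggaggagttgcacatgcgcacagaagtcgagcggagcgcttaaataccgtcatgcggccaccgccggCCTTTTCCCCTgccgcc
Rpl41 (chr10:128549144-128549228, minus strand): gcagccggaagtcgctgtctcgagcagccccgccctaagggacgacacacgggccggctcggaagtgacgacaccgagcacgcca
Rpl22 (chr4:152325666-152325750, plus strand): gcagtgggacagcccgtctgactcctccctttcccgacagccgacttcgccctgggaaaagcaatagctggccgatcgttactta
In Rps6 and Rps12 the run lies at the annotated start or a few bases beyond it. At Rpl41 and Rpl22 no such run started within 20 bases of the annotated start. Pyrimidines farther upstream, as in the printed Rpl22 sequence, were not counted. The 300 bases from 250 before to 50 after the start also held the letters CTTTCC, on either strand, in 50.9% of the 57 ribosomal protein promoters and 29.3% of the others. The share was 34.8% in the small subunit and 61.8% in the large. CCGGAAGT, the letters of an ETS-type site, stood in 19.3% against 4.28%, AAGATGGC in 8.77% against 3.18%, and TATAAA in 10.5% against 15.7%. These matches are descriptions of the letters and say nothing of binding.

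Total counts ran from 14132371 to 23163709 per library, and 1 count was worth 0.0442 to 0.0724 counts-per-million (CPM) after TMM scaling (trimmed mean of M-values). Map3k7 stood at 39.3 to 43.0 CPM in the 6 libraries with its hairpin and 124 to 140 CPM in the other 5 (log2 fold change -1.69 ± 0.10 SE in shMap3k7 and -1.71 ± 0.07 in shDouble, edgeR adjusted p = 2.9e-05 and 2.2e-06). Chd1 differed less: 145 and 150 CPM in shChd1 and 195 to 212 CPM in shControl (-0.46 ± 0.10, edgeR adjusted p = 0.047), and 162 to 198 CPM in shDouble against 221 and 238 CPM in shMap3k7 (-0.30 ± 0.10, edgeR adjusted p = 1). Of 7 epithelial markers the summed level was 10135 to 10311 CPM in shMap3k7, 9904 to 10483 CPM in shDouble, 2039 to 2291 CPM in shChd1 and 3832 to 9661 CPM in shControl. Krt5, a basal keratin, was under 1 CPM in 9 of the 11 libraries, at 1.93 CPM in shChd1 replicate 1 and at 48.9 CPM in shControl replicate 1. The 4 fibroblast markers summed to 7.28 to 10.0 CPM in shMap3k7, 4.99 to 8.49 CPM in shDouble, 119 to 125 CPM in shChd1 and 24.4 to 84.0 CPM in shControl, with Col3a1 and Pdgfrb under 1 CPM in every shMap3k7 and shDouble library. The 3 endothelial markers reached 38.1 CPM in 1 shControl library and at most 0.436 CPM in the other groups, the 3 immune markers lay between 1.01 and 1.997 CPM throughout, and the 2 neuroendocrine markers did not exceed 0.325 CPM. The summed epithelial and fibroblast levels thus differed between groups, and the epithelial sum also varied widely within shControl. Single epithelial markers went both ways in the groups with the Map3k7 hairpin. Against shControl, 2 were called higher and 1 lower in shMap3k7, and 4 higher and 2 lower in shDouble. In shChd1 0 were called higher and 5 lower, and 0 were called with the Chd1 hairpins compared within a line. Of all genes, 4.86% were called higher and 7.08% lower in shMap3k7, and 10.2% and 13.6% in shDouble. The shares in shChd1 were 0.662% and 2.24%. The part of these levels in the results below was not tested.

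The ribosomal protein genes together held 4.88% to 5.60% of all counts, and their share was higher in the libraries with the Map3k7 hairpin. It was 5.39% and 5.48% in shMap3k7, 5.29%, 5.16%, 5.60% and 5.37% in shDouble, 4.91% and 5.14% in shChd1, and 5.09%, 4.88% and 5.03% in shControl. The Wilson 95% interval of a share, which covers counting error only, was 5.38% to 5.40% in shMap3k7 replicate 1, far narrower than the spread between libraries. Every library with the Map3k7 hairpin lay above every library without it, the closest pair being shDouble replicate 2 at 5.16% and shChd1 replicate 2 at 5.14%. With pseudogenes matched by sequence added this separation did not hold, with shDouble replicate 2 at 6.11% and shChd1 replicate 2 at 6.12%. The means were 5.43% ± 0.0656 in shMap3k7 (SD, n = 2), 5.35% ± 0.184 in shDouble (SD, n = 4), 5.02% ± 0.165 in shChd1 (SD, n = 2) and 5.00% ± 0.107 in shControl (SD, n = 3). In bulk RNA, a change in the number of cells of a type and a change in the RNA of each cell cannot be told apart.

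The share of each subunit was also higher in the groups with the Map3k7 hairpin. Small subunit genes held 2.24% ± 0.00686 of counts in shMap3k7 (SD, n = 2), 2.20% ± 0.0545 in shDouble (SD, n = 4), 2.10% ± 0.0569 in shChd1 (SD, n = 2) and 2.08% ± 0.0119 in shControl (SD, n = 3). Large subunit genes held 3.19% ± 0.0588 in shMap3k7 (SD, n = 2), 3.16% ± 0.130 in shDouble (SD, n = 4), 2.92% ± 0.108 in shChd1 (SD, n = 2) and 2.92% ± 0.104 in shControl (SD, n = 3). The counts of large over small subunit genes stood at 1.41 and 1.44 in shMap3k7, 1.43, 1.41, 1.47 and 1.44 in shDouble, 1.38 and 1.40 in shChd1, and 1.44, 1.35 and 1.43 in shControl. The clone 1 and shChd1 libraries lay within the range of shControl, whose highest ratio was 1.437. The 3 libraries of clone 7 lay above it, at 1.441 in shMap3k7 and 1.465 and 1.443 in shDouble.

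**Figure D1:**
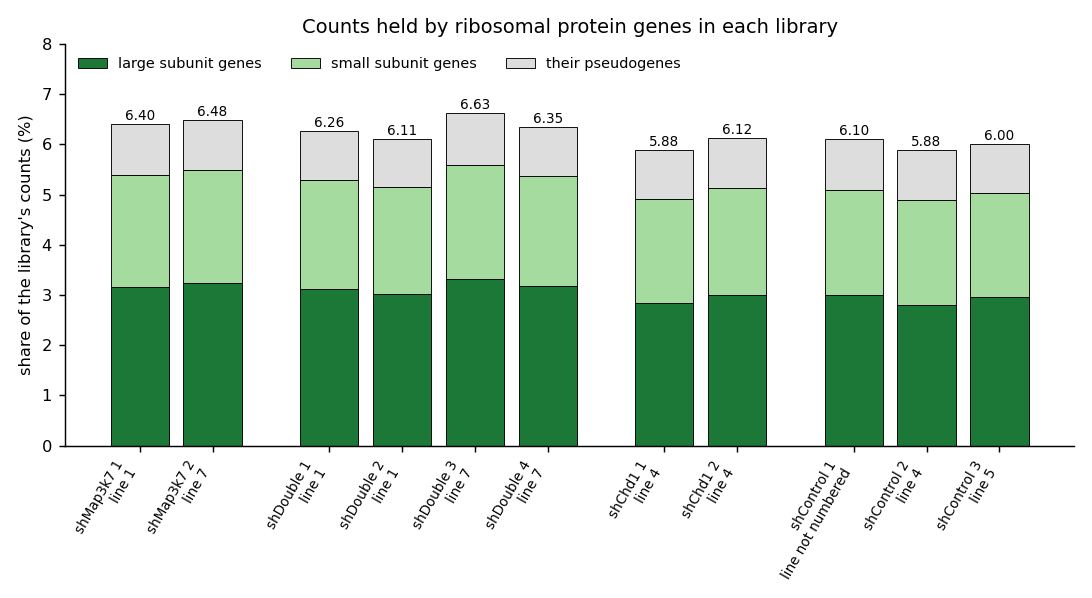
Share of each library's counts, in percent, held by large subunit genes, small subunit genes and the pseudogenes matched to them by sequence, with 1 bar per library and its line below the bar. The number above each bar is the sum of the 3 shares, which was 6.11% to 6.63% in the 6 libraries with the Map3k7 hairpin and 5.88% to 6.12% in the 5 without it.

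Levels differed widely between genes. Per kilobase of transcript and averaged over the 11 libraries, the highest of the small subunit were Rps2 at 2400 CPM per kb, Rps29 at 1920 and Rps14 at 1696. Of the large subunit they were Rpl41, which encodes the smallest ribosomal protein, at 2797 CPM per kb, Rplp1, of the stalk that recruits elongation factors, at 2487, and Rpl32 at 1628. The lowest of the small subunit were Rps12 at 126 CPM per kb, Rps20 at 211 and Rps3a1 at 235, and of the large subunit Rpl5 at 24.9, Rpl12 at 59.2 and Rpl27 at 130. The annotated transcript lengths ran from 271 to 3706 bases with a median of 729, and the longest, 3706 bases, belonged to Rps20. Its coding sequence is 357 bases, and its low level per kilobase depends on that annotated length.

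Most of the lowest levels stood beside a pseudogene that held the larger part of the counts. A search of the annotated pseudogene transcripts found 845 rows of the table at 90% identity or more over at least 50% of a member's coding sequence, for 74 of the 77 genes. Most held little: 541 had any count and 32 had over 1000 counts in all libraries together. However, 95.01% of the counts of Rpl5 and its copies were given to copies, mainly Gm15500 (chr7:114705217-114706235), which matches its coding sequence at 100%. The figure was 94.0% for Rpl12, mainly to Gm10275 (chr10:29698746-29699380, also 100%), 92.3% for Rps12, 88.4% for Rpl27, 80.5% for Rps3a1, 77.1% for Rpl10 and 69.6% for Rps7. With copies added, the level per kilobase was 498 CPM for Rpl5, 989 for Rpl12, 1646 for Rps12, 1128 for Rpl27 and 1201 for Rps3a1. These levels therefore depend on how the authors' counting divided reads between near-identical sequences. For 50 genes the copies held under 1% of the counts.

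The groups with Map3k7 knockdown were then set against the controls, to see which individual genes carried the higher share. In shMap3k7, 6 of the 77 genes rose and 0 fell at an edgeR adjusted p under 0.05, which is 7.79% of them, where 4.86% of all 14346 genes tested were called higher and 7.08% lower (11.9% in all). In shDouble, 13 of 77 rose (16.9%) and 0 fell, where 10.2% of all genes were called higher and 13.6% lower (23.8% in all). In these 2 fits the shares called higher stood above the background rates, and the shares called in either direction stood below them. No member was called lower in either comparison. The 2 comparisons share the 3 shControl libraries. Beneath the calls, 68 of 77 log2 fold changes were positive in shMap3k7 with a median of 0.18, and 65 of 77 in shDouble with a median of 0.18, where the medians of all genes were -0.01 and -0.00. Changes ran from -0.18 to 0.60 in shMap3k7 and from -0.12 to 0.52 in shDouble. With only the compared groups in the fit, 0 members were called in shMap3k7, where 0.311% of all genes were called higher. In shDouble 6 members were called (7.79%), where 7.77% of all genes were called higher. Without shMap3k7 replicate 1 the count in shMap3k7 was 0 (0.585% of all genes higher), and without replicate 2 it was 3 (1.41%). The count in shDouble was 6 (7.79%) without shControl replicate 2 or shDouble replicate 3, where 6.31% and 7.29% of all genes were called higher. It was 7 (9.09%) without shDouble replicate 4 (6.96% of all genes), shChd1 replicate 1 (7.84%) or shChd1 replicate 2 (7.86%). In these refits the share of members called in shDouble lay close to that of all genes.

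The subunits gave like counts. Of the small subunit 3 of 31 genes rose in shMap3k7 and 6 of 31 in shDouble, with medians of 0.22 and 0.17 over its members. Of the large subunit 3 of 46 rose in shMap3k7 and 7 of 46 in shDouble, with medians of 0.18 and 0.18. Positive changes were seen for 25 of 31 small and 43 of 46 large subunit genes in shMap3k7, and for 23 of 31 and 42 of 46 in shDouble. Of non-member genes with transcripts under 1000 bases, a length class that holds most ribosomal protein genes, 755 were tested. Their median log2 fold change was 0.07 in each of the 2 comparisons.

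**Figure D2:**
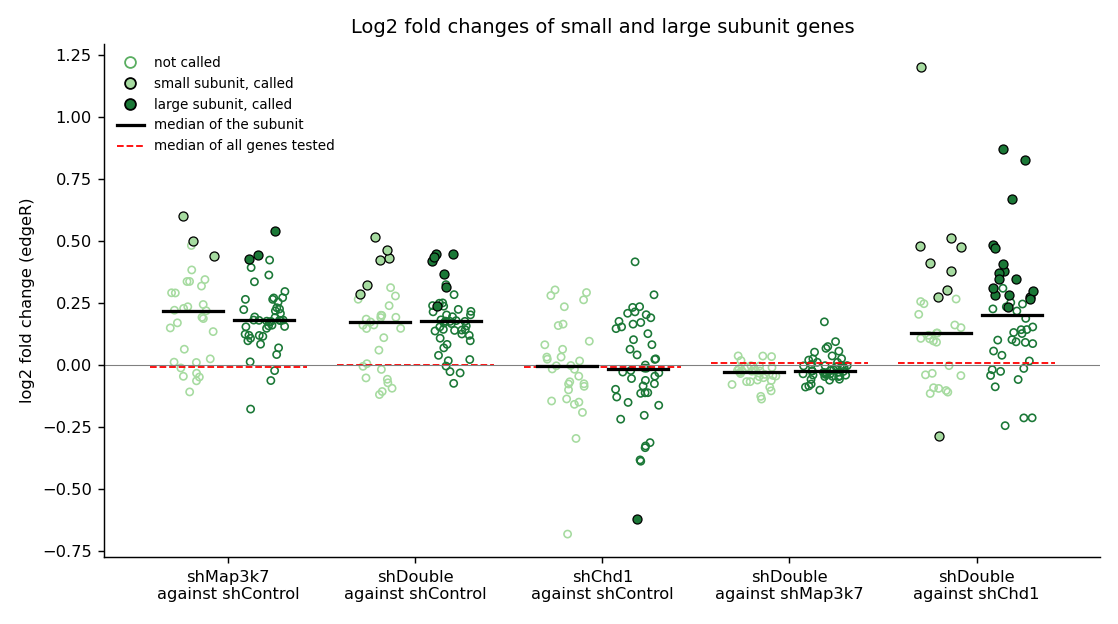
Log2 fold change (edgeR) of each of the 31 small subunit genes (left column of each pair) and 46 large subunit genes (right column) in 5 comparisons; filled points were called at an adjusted p under 0.05, black bars are subunit medians and dashed red lines the medians of all genes tested. The bulk of the points lies above 0 in the comparisons of shMap3k7 and shDouble with shControl (medians 0.17 to 0.22), and around 0 for shChd1 against shControl and shDouble against shMap3k7.

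Rps29 (ENSMUSG00000034892.8, chr12:69157722-69159186), a small subunit gene mutated in some human families with Diamond-Blackfan anaemia, had the lowest adjusted p of the family in shMap3k7 and in shDouble. It had 962 and 821 CPM in shMap3k7, 842, 820, 818 and 761 CPM in shDouble, 674 and 775 CPM in shChd1, and 589, 610 and 565 CPM in shControl. Every library with the Map3k7 hairpin lay above every shControl library, while shChd1 replicate 2 overlapped the shDouble range. The log2 fold change was 0.60 ± 0.10 (SE) in shMap3k7 (edgeR adjusted p = 0.0056) and 0.46 ± 0.08 in shDouble (edgeR adjusted p = 0.0037).

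Rps20 (ENSMUSG00000028234.6, chr4:3831334-3835665) and Rps6 (ENSMUSG00000028495.14, chr4:86854660-86857412) are small subunit genes that lie on chromosome 4. Rps20 had 973 and 879 CPM in shMap3k7, 922, 853, 944 and 815 CPM in shDouble, 621 and 620 CPM in shChd1, and 556, 671 and 736 CPM in shControl. All 6 libraries with the Map3k7 hairpin exceeded the other 5. It rose by 0.50 ± 0.12 in shMap3k7 (edgeR adjusted p = 0.0241) and by 0.43 ± 0.10 in shDouble (edgeR adjusted p = 0.0125). Rps6, whose protein is phosphorylated by S6 kinase downstream of mTOR and whose start site carries the pyrimidine run printed above, had 1074 and 948 CPM in shMap3k7, 1055, 976, 969 and 901 CPM in shDouble, 827 and 866 CPM in shChd1, and 735, 816 and 851 CPM in shControl. Its groups were also separate. It rose by 0.28 ± 0.08 in shDouble (edgeR adjusted p = 0.0324), and its 0.34 ± 0.10 in shMap3k7 missed the threshold (edgeR adjusted p = 0.051).

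Of the large subunit, Rpl11 (ENSMUSG00000059291.15, chr4:136028265-136053428), which with Rpl5 can bind the p53 inhibitor Mdm2, had 731 and 612 CPM in shMap3k7, 696, 699, 642 and 634 CPM in shDouble, 527 and 583 CPM in shChd1, and 466, 522 and 509 CPM in shControl. Again no library with the Map3k7 hairpin was as low as any without it. The change was 0.43 ± 0.10 in shMap3k7 (edgeR adjusted p = 0.0246) and 0.42 ± 0.09 in shDouble (edgeR adjusted p = 0.0072). Its partner Rpl5 showed 56.4 and 53.2 CPM in shMap3k7, 51.8, 49.8, 54.1 and 48.4 CPM in shDouble, 43.6 and 52.2 CPM in shChd1, and 53.6, 43.6 and 54.2 CPM in shControl. These ranges overlapped, and no difference passed the test (0.12 in shMap3k7 and 0.02 in shDouble, edgeR adjusted p = 0.56 and 0.93), although most Rpl5 counts stand under its copies.

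Rpl22 (ENSMUSG00000028936.15, chr4:152325742-152334071), an RNA-binding protein with a close paralog, Rpl22l1, had 257 and 212 CPM in shMap3k7, 255, 250, 240 and 228 CPM in shDouble, 200 and 210 CPM in shChd1, and 157, 192 and 186 CPM in shControl. It rose by 0.45 ± 0.10 in shDouble (edgeR adjusted p = 0.0096), with all 4 libraries above the controls. Its 0.39 ± 0.12 in shMap3k7 missed the threshold (edgeR adjusted p = 0.052). Rpl41 (ENSMUSG00000093674.7, chr10:128548114-128549305) had 1403 and 1482 CPM in shMap3k7, 1368, 1368, 1574 and 1441 CPM in shDouble, 833 and 789 CPM in shChd1, and 1130, 908 and 1148 CPM in shControl. The shChd1 libraries lay below all controls and the libraries with the Map3k7 hairpin above them. The rise was 0.44 ± 0.11 in shMap3k7 (edgeR adjusted p = 0.0297) and 0.44 ± 0.09 in shDouble (edgeR adjusted p = 0.0090).

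Rps12 (ENSMUSG00000061983.7, chr10:23785183-23787275), known from cell competition in Drosophila, had 73.4 and 76.7 CPM in shMap3k7, 64.9, 65.9, 95.3 and 81.8 CPM in shDouble, 31.4 and 35.6 CPM in shChd1, and 56.8, 45.7 and 58.8 CPM in shControl. The order of the groups was the same as for Rpl41, with no overlap between shDouble, shControl and shChd1. It rose by 0.52 ± 0.15 in shDouble (edgeR adjusted p = 0.0294), and its 0.48 ± 0.17 in shMap3k7 missed the threshold (edgeR adjusted p = 0.097). With the counts of its pseudogenes added, which hold most of the total, it was 0.27 in shDouble (edgeR adjusted p = 0.0618) and 0.40 in shMap3k7 (edgeR adjusted p = 0.0403). The remaining 4 genes called in shDouble had log2 fold changes of 0.24 to 0.36. All 6 genes called in shMap3k7 were among the 13 called in shDouble, with the same controls on both sides.

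Several members with a role of their own did not pass the test in shMap3k7 or shDouble. Rps19, the gene most often mutated in human Diamond-Blackfan anaemia, stood at -0.05 in shMap3k7 and -0.11 in shDouble (edgeR adjusted p = 0.82 and 0.42). Rps3, which also acts in DNA repair, stood at -0.03 and -0.07 (edgeR adjusted p = 0.84 and 0.53). Rps27a, made as a fusion with ubiquitin, stood at 0.38 ± 0.13 and 0.28 (edgeR adjusted p = 0.072 and 0.083). Of the stalk genes, Rplp0 gave 0.17 and 0.14 (edgeR adjusted p = 0.45 and 0.44), Rplp1 0.18 and 0.12 (0.15 and 0.21) and Rplp2 -0.02 and -0.03 (0.90 and 0.83). Rpsa, also known as the laminin receptor precursor, gave 0.13 and 0.11 (edgeR adjusted p = 0.24 and 0.21). Rps14 gave 0.17 and 0.15 (edgeR adjusted p = 0.25 and 0.20), and Rpl10, which joins the large subunit late in its assembly, -0.18 and -0.01 (0.37 and 0.98). None of these genes fell at the threshold, and those nearest to 0 included Rps3, Rps19 and Rplp2, which all lie on chromosome 7.

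Rpl3 (ENSMUSG00000060036.14, chr15:80077791-80091868), whose protein reaches to the peptidyl transferase centre, differed between libraries together with a pseudogene. It had 1555 and 1760 CPM in shMap3k7, 1486, 1462, 1720 and 1563 CPM in shDouble, 933 and 1027 CPM in shChd1, and 1023, 963 and 1437 CPM in shControl. The libraries with the Map3k7 hairpin exceeded all others, but shControl replicate 3 stood close to them and far from the other 2 controls. Rpl3 rose by 0.54 ± 0.16 in shMap3k7 (edgeR adjusted p = 0.0498) and by 0.45 ± 0.13 in shDouble (edgeR adjusted p = 0.0340). The intronless copy Rpl3-ps1 (chrX:13202571-13203780) is 99.8% identical to the Rpl3 coding sequence and differs from it at 2 positions of 1209, C57A and T786C, counted from 1 at the first coding base, with the base of Rpl3 first. The windows of 29 bases below, 5′ to 3′, show these 2 positions in capitals, the only places in the coding sequence where a read can tell the genes apart.
Rpl3, position 57: ggcttcctgcctcgCaagcgcagcagccg
Rpl3-ps1, position 57: ggcttcctgcctcgAaagcgcagcagccg
Rpl3, position 786: caccctgcccgtgtTgccttctctgtggc
Rpl3-ps1, position 786: caccctgcccgtgtCgccttctctgtggc
Rpl3-ps1 was given 2 and 8 counts in shMap3k7, 11, 11, 5 and 9 counts in shDouble, 7232 and 7162 counts in shChd1, and 4736, 8904 and 8 counts in shControl. Line 4 and the unnumbered line thus had at least 4736 counts per library, and line 5 and both Map3k7 clones at most 11. Added together, Rpl3 and Rpl3-ps1 had 1556 and 1761 CPM in shMap3k7, 1486, 1463, 1720 and 1564 CPM in shDouble, 1383 and 1480 CPM in shChd1, and 1318, 1425 and 1438 CPM in shControl. The sums still did not overlap between the Map3k7 groups and shControl, while shChd1 replicate 2 reached into the shDouble range. With the counts of all its sequence-matched pseudogenes added, the change of Rpl3 was 0.25 in shMap3k7 and 0.16 in shDouble, and neither passed the threshold (edgeR adjusted p = 0.111 and 0.171).

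A pseudogene of Rpl30, Gm12191 (chr11:49678710-49679057, 99.7% identical), showed a like division of the libraries. It had 10 and 0 counts in shMap3k7, 0 in each shDouble library, 574 and 737 counts in shChd1, and 546, 993 and 0 counts in shControl. Line 5 stood with the Map3k7 clones in this case too.

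**Figure D3:**
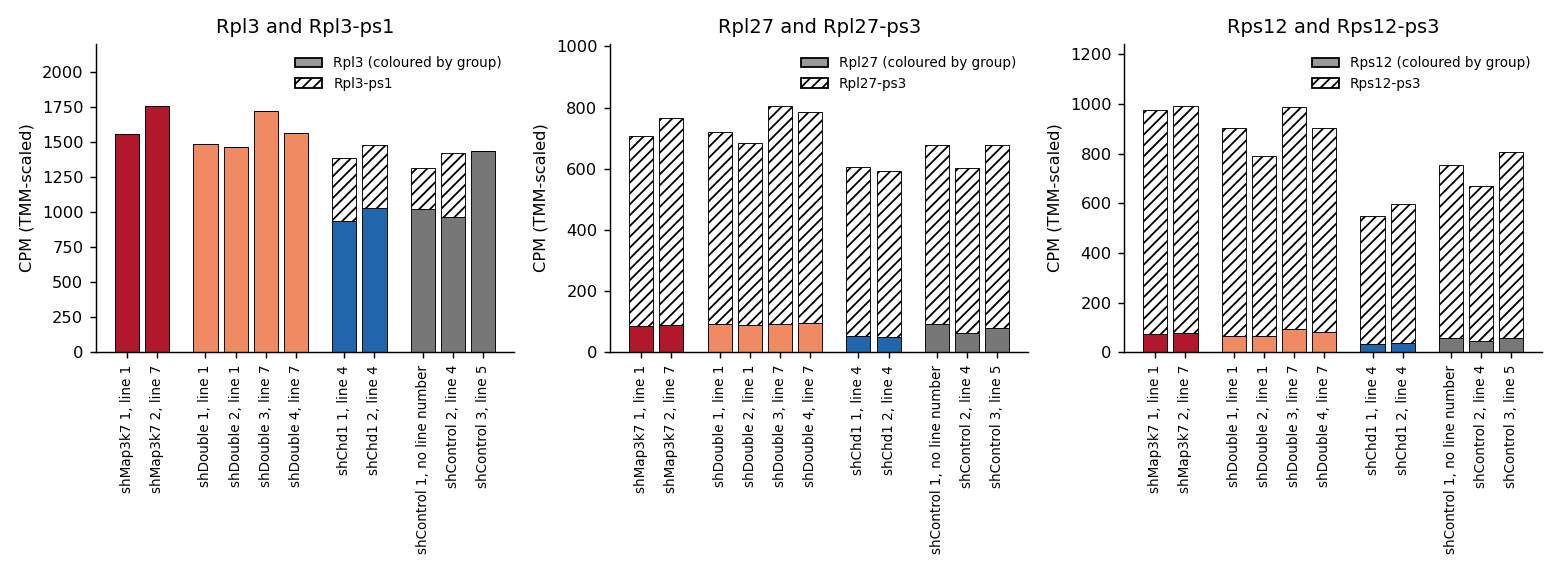
TMM-scaled CPM of Rpl3, Rpl27 and Rps12 (solid, coloured by group) and of 1 pseudogene of each (hatched, stacked on top) in each library. Rpl3-ps1 takes a visible part in the 2 shChd1 libraries and shControl replicates 1 and 2 only, while Rpl27-ps3 and Rps12-ps3 hold most of the counts in every library.

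Chd1 knockdown alone changed few of these genes. In shChd1, 0 of 77 genes rose and 1 of 77 fell at an edgeR adjusted p under 0.05, where 0.662% of all genes were called higher and 2.24% lower (2.91% in all). The median log2 fold change was -0.01, the same as that of all genes, 34 of 77 changes were positive, and they ran from -0.68 to 0.42. Medians were -0.00 in the small and -0.02 in the large subunit. The gene that fell was Rpl27 (ENSMUSG00000063316.13, chr11:101442298-101445529), with 85.0 and 88.9 CPM in shMap3k7, 93.2, 87.8, 93.7 and 96.4 CPM in shDouble, 52.6 and 48.7 CPM in shChd1, and 91.8, 62.8 and 79.7 CPM in shControl. Both shChd1 libraries lay below every other library, and the lowest control was replicate 2, which is line 4, the line from which both were made. The change was -0.62 ± 0.14 (edgeR adjusted p = 0.0470), and it was -0.31 with the line as a block (edgeR adjusted p = 0.154). With pseudogene counts added it was -0.13 (edgeR adjusted p = 0.441); Rpl27 and Rpl27-ps3 together had 605 and 591 CPM in shChd1 and 678, 602 and 679 CPM in shControl.

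The widest change of the family in shChd1 was that of Rps12, -0.68 ± 0.18, which missed the threshold (edgeR adjusted p = 0.066); with the line as a block it was -0.45 (edgeR adjusted p = 0.186). Rps12 and Rps12-ps3 together had 549 and 599 CPM in shChd1 and 756, 670 and 807 CPM in shControl, again with line 4 the lowest control. Rpl41 followed with -0.39 ± 0.11 (edgeR adjusted p = 0.079). Without shControl replicate 2, 6 members were called in shChd1 (1 higher and 5 lower) and Rpl27 stood at -0.76 (edgeR adjusted p = 0.0018), in a fit that called 18.7% of all genes. Leaving out any other single library gave 0 calls among the members. Since both shChd1 libraries are line 4, the line and the Chd1 hairpin cannot be told apart where line 4 itself was not compared.

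The Chd1 hairpins added to a Map3k7 clone moved none of the 77 genes past the threshold. In shDouble against shMap3k7, edgeR called 0 members and 0% of all genes, DESeq2 likewise called 0 members, and 0 members against 115 of all genes had an unadjusted p under 0.05. The changes of the members ran from -0.14 to 0.17, with a median of -0.03 and 17 of 77 positive. Within a line, over line 4 and both Map3k7 clones, edgeR and DESeq2 again called 0 members, where 0.0279% of all genes were called; 0 members and 704 of all genes had an unadjusted p under 0.05. Set against the library of its own line, the median change of the members was -0.06 in shDouble replicate 1 and -0.10 in replicate 2, both of clone 1, and 0.04 in replicate 3 and -0.00 in replicate 4, both of clone 7. It was 0.02 in shChd1 replicate 1 and 0.06 in shChd1 replicate 2 against shControl replicate 2. The direction was therefore not shared by the 3 lines, and these differences have no replicate of their own.

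shDouble against shChd1 gave the most calls, in a comparison that also sets the Map3k7 clones against line 4. In it, 25 of 77 genes rose (32.5%) and 1 fell, where 22.6% of all genes were called higher and 22.2% lower (44.8% in all). The median was 0.15 over all members, 0.13 in the small and 0.20 in the large subunit, against 0.01 for all genes. The count of 26 was 9 without shChd1 replicate 1, 8 without shChd1 replicate 2 and 16 without shDouble replicate 3 or 4, in fits that called 27.9%, 24.4%, 41.3% and 40.9% of all genes. Of the small subunit 8 genes rose and 1 fell, and of the large subunit 17 rose. The 5 largest rises were those of Rps12 (1.20 ± 0.18, edgeR adjusted p = 0.00056), Rpl27 (0.87 ± 0.14, 0.00076), Rpl41 (0.83 ± 0.11, 0.00034), Rpl3 (0.67 ± 0.15, 0.0057) and Rps20 (0.51 ± 0.12, 0.0053), none of whose values overlapped between the 2 groups. Rpsa rose by 0.30 ± 0.07 (edgeR adjusted p = 0.0052), Rplp0 by 0.47 ± 0.14 (0.017) and Rpl11 by 0.27 ± 0.10 (0.048).

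Rplp0 had 1878, 1743, 1609 and 1485 CPM in shDouble and 1240 and 1183 CPM in shChd1, with 1561, 1346 and 1675 CPM in shControl between them and overlapping shDouble. Rps15a (ENSMUSG00000008683.16, chr7:118104372-118116188), the gene that fell, had 427, 422, 427 and 418 CPM in shDouble, 480 and 553 CPM in shChd1, and 417, 433 and 426 CPM in shControl. The shChd1 libraries were the high ones, and the change was -0.29 ± 0.08 (edgeR adjusted p = 0.0145). With pseudogene counts added, the rise in shDouble over shChd1 was 0.65 for Rps12 (edgeR adjusted p = 0.0011) and 0.33 for Rpl27 (0.0172), and Rpl3 stood at 0.12 (0.295).

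The interaction, the change of shDouble over shMap3k7 less that of shChd1 over shControl, called 0 members and 0% of all genes with edgeR; 11 members and 1998 of all genes had an unadjusted p under 0.05, and DESeq2 called 1 member and 1.49% of all genes. Without shControl replicate 2, edgeR called 2 members (2.60%) and 7.09% of all genes. The smallest p belonged to Rpl27 (0.72 ± 0.19, unadjusted p = 0.0037, edgeR adjusted p = 0.211). Rps12 stood at 0.72 ± 0.25 and Rps29 at -0.44 ± 0.13. None passed the threshold.

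The members moved with the clone and the chromosome as well as with the hairpin. Departures below are log2 of CPM + 0.5 in a library less its mean over the 3 shControl libraries. The median over the 77 genes was 0.16 in shMap3k7 of clone 1 and 0.12 and 0.06 in shDouble of clone 1, and it was 0.25 in shMap3k7 of clone 7 and 0.31 and 0.25 in shDouble of clone 7. It was -0.04 and 0.01 in shChd1 and -0.00, -0.01 and 0.02 in shControl. The order held in each subunit: 0.14, 0.07 and 0.04 in the small subunit of clone 1 against 0.27, 0.30 and 0.26 in clone 7. In the large subunit the medians were 0.16, 0.14 and 0.08 in clone 1 and 0.23, 0.32 and 0.25 in clone 7. Each clone 7 library therefore stood above each clone 1 library.

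Gene by gene, 43 of 77 members (55.8%) were higher in all 3 libraries of clone 7 than in all 3 of clone 1, and 20 (26.0%) were lower in all, where the same was true of 22.1% and 23.3% of all genes tested. Of the 20 lower members, 12 were among the 14 that lie on chromosome 7. Off chromosome 7, 42 of 63 were higher in clone 7. Comparing the 6 libraries with the Map3k7 hairpin with the other 5, 23 of 77 members (29.9%) were higher in every library and 0 lower in every library, where 12.1% and 12.8% of all genes were. These were 9 of the 31 small and 14 of the 46 large subunit genes.

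**Figure D4:**
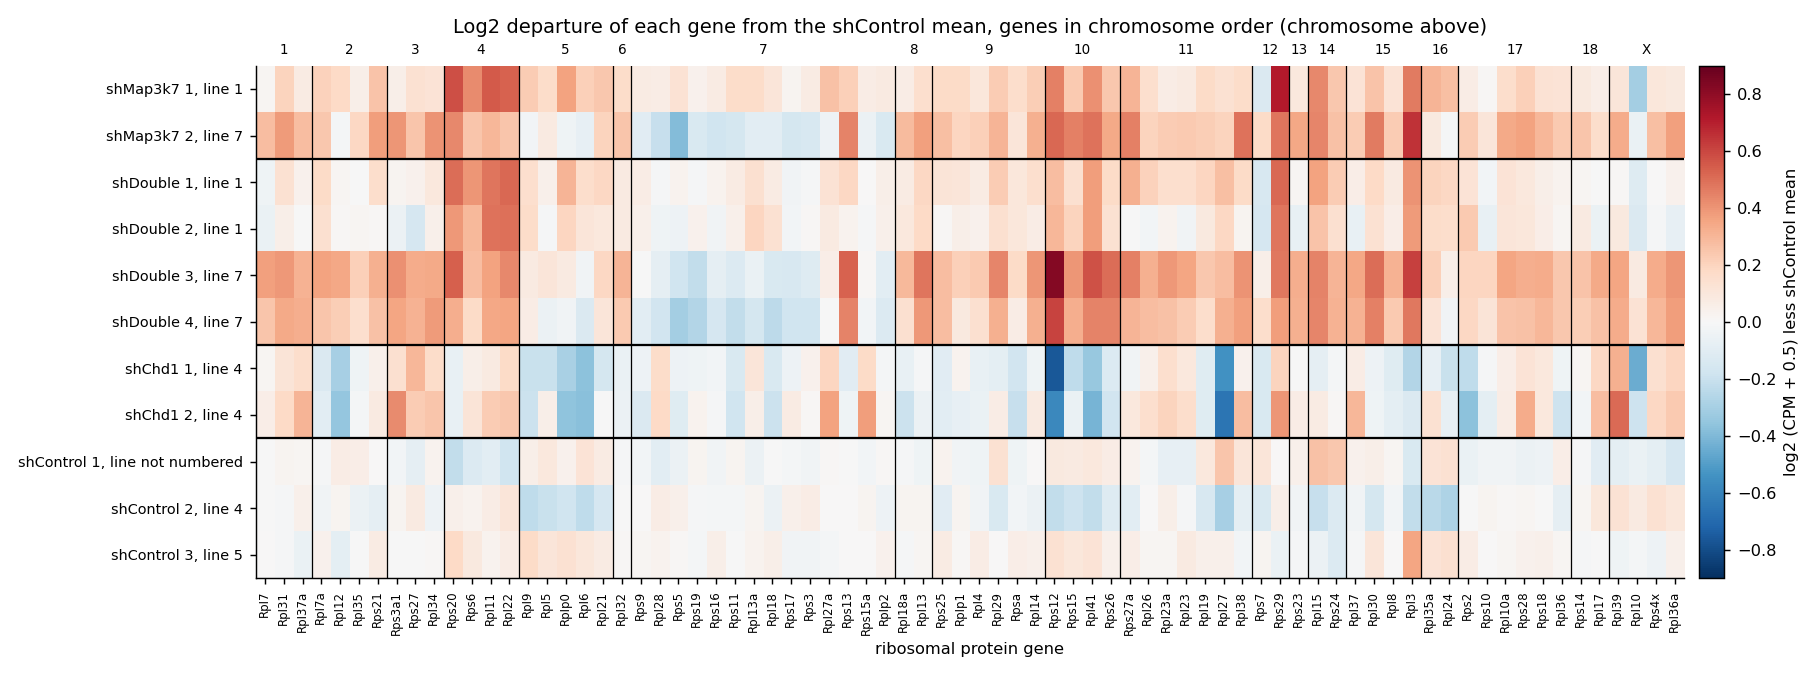
Log2 departure of the ribosomal protein genes, all but 1 of the 77 (columns, in chromosome order, chromosome number above) from the shControl mean in each of the 11 libraries (rows, with the line). The genes of chromosome 4 are high in all libraries of clone 1 and clone 7, most genes of chromosome 7 are low in the 3 libraries of clone 7, and the genes of chromosome 10 are high in clone 7 and low in line 4.

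The 77 genes lay on 19 chromosomes, 14 of them on chromosome 7 and 5 on chromosome 4. The chromosome 4 genes, among them Rps20, Rps6, Rpl11 and Rpl22, made up 3 of the 6 calls in shMap3k7 and 5 of the 13 in shDouble. Their median departure was 0.45 to 0.55 in the libraries of clone 1, in which the 877 other genes of that chromosome had a median of 0.29 to 0.30. In clone 7 it was 0.30 to 0.43, with 0.10 for the other genes. The other genes of chromosome 4 were thus displaced in the same direction as its ribosomal protein genes, which stood above them.

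On chromosome 7 the members, taken as a median, stood below the controls in clone 7, though Rps13 stood above them. The 14 members had medians of -0.14, -0.09 and -0.16 in the 3 libraries of clone 7, in which the 1106 other genes of the chromosome had a median of -0.36. In clone 1 they had 0.08, 0.04 and 0.04, with -0.10 to -0.07 for the other genes. Of these 14, 9 belong to the small subunit. On chromosome 10, with Rps12, Rpl41, Rps15 and Rps26, the members stood at 0.45 to 0.54 in clone 7 and 0.23 to 0.32 in clone 1, and the other genes at 0.12 to 0.13 and 0.06 to 0.07. In line 4 the direction was the opposite, at -0.30 to -0.28 in shChd1 and -0.20 in shControl replicate 2, with the other genes at -0.21 in shChd1 and -0.13 in that control. The median of the 5 members on chromosome 5 was also low in line 4, at -0.20 to -0.19 in shChd1 and -0.20 in shControl replicate 2. The 965 other genes of that chromosome stood at -0.19 to -0.17 in shChd1 and -0.12 in that control.

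Set against their chromosome, the members stood higher than the other genes in the Map3k7 clones. In both clones their median, averaged over the clone's libraries, lay above that of the other genes on all 19 chromosomes. The median difference was 0.15 in clone 1 and 0.26 in clone 7. Chromosomes 6 and 13 hold 1 member each. In shChd1 the members were not higher throughout, with -0.07 on chromosome 9 where the other genes had 0.04. With the chromosome's median taken from each fold change, 76 of 77 members were positive in shMap3k7 (median 0.23) and 75 of 77 in shDouble (median 0.20), Rpl10 on the X chromosome being the exception in shMap3k7 at -0.17. The part of chromosome, clone and hairpin in these values cannot be told apart with 2 clones, both of which carry the Map3k7 hairpin.

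**Figure D5:**
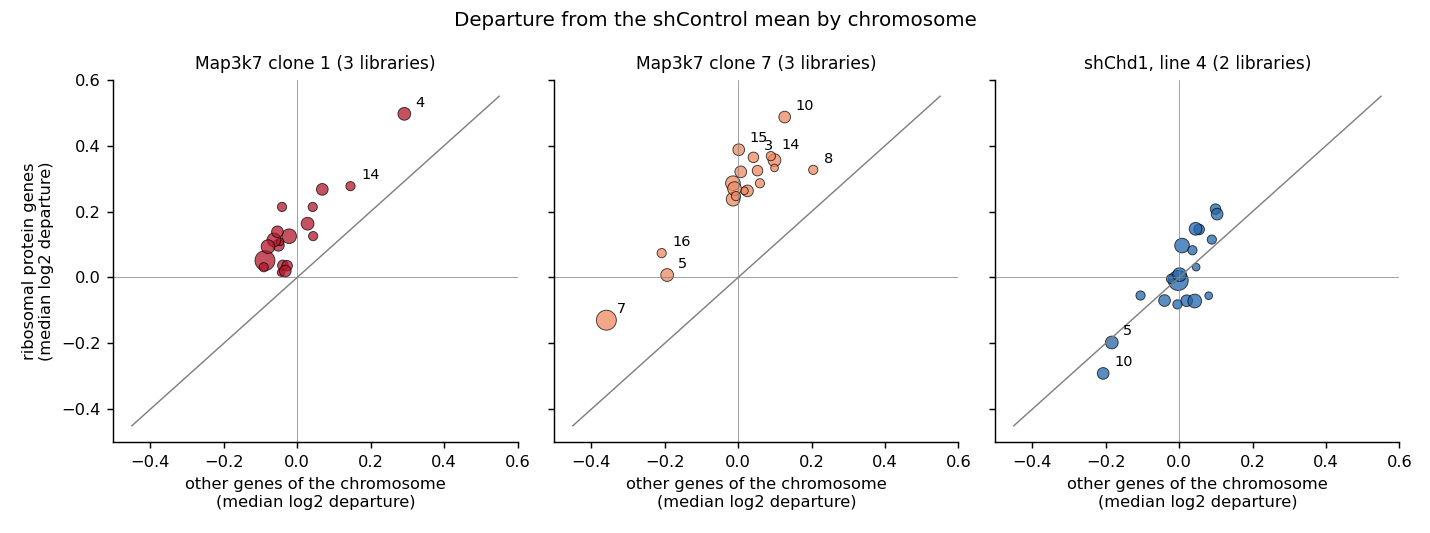
Median log2 departure from the shControl mean of the ribosomal protein genes of a chromosome (vertical) against that of all other tested genes of the chromosome (horizontal), averaged over the libraries of Map3k7 clone 1, of clone 7 and of shChd1; point size grows with the number of ribosomal protein genes and the grey line marks equal values. All 19 points lie above the line in both Map3k7 clones, including chromosome 7 in clone 7, and they lie on either side of it in shChd1.

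Genes that work with the ribosome were examined as lists of their own. Of the paralogs and fusion partners outside the rule, 6 of 10 were tested; Rpl10l, Rpl39l, Rpl3l and Rps4l were under the filter. In shMap3k7 2 of the 6 rose and 0 fell (median 0.33), and in shDouble 3 rose and 0 fell (median 0.30). In shChd1 0 passed in either direction (median -0.05). Beside these, 4.86% of all genes were called higher in shMap3k7 and 10.2% in shDouble. Fau, which encodes the small subunit protein S30 fused to a ubiquitin-like protein, had 414 and 430 CPM in shMap3k7, 380, 381, 420 and 352 CPM in shDouble, 241 and 270 CPM in shChd1, and 260, 234 and 251 CPM in shControl. All libraries with the Map3k7 hairpin exceeded all others, by 0.76 ± 0.10 in shMap3k7 (edgeR adjusted p = 0.0020) and 0.62 ± 0.08 in shDouble (edgeR adjusted p = 0.0010) relative to shControl. Fau lies on chromosome 19, which holds none of the 77 genes; the 469 genes tested there had a median change of 0.36 in shMap3k7 and 0.39 in shDouble. Rpl36al, a paralog of Rpl36a, rose by 0.46 ± 0.11 in shMap3k7 and 0.36 ± 0.10 in shDouble (edgeR adjusted p = 0.0271 and 0.0205).

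The next list held translation factors and other genes whose messenger RNAs carry a 5′ TOP. Of 19 tested, 5 rose and 0 fell in shMap3k7 (median 0.25, 16 positive). In shDouble 7 rose and 0 fell (median 0.20, 17 positive), and in shChd1 0 passed (median -0.06). The share of all genes called higher was 4.86% in shMap3k7 and 10.2% in shDouble. Eef1g, a subunit of the elongation factor that recharges eEF1A, also on chromosome 19, rose by 0.60 ± 0.08 in shMap3k7 (edgeR adjusted p = 0.0020) and 0.54 ± 0.07 in shDouble (0.0006). Npm1, a nucleolar chaperone, rose by 0.56 ± 0.15 in shMap3k7 (edgeR adjusted p = 0.0387).

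Ribosome assembly factors are mostly nucleolar proteins that process ribosomal RNA and build the subunits. Of 41 tested, 8 rose in shMap3k7 (median 0.36), 22 rose in shDouble (median 0.41), and 11 fell in shChd1 (median -0.47), none passing in the opposite direction. Of all genes, 4.86% were called higher in shMap3k7, 10.2% higher in shDouble and 2.24% lower in shChd1. In shDouble against shChd1 all 41 rose, with a median of 0.85, where 22.6% of all genes were called higher (44.8% in all). That contrast also sets the Map3k7 clones against line 4. Of the called factors, 2 lay on chromosome 19 in each of shMap3k7 and shDouble, and off that chromosome the medians over the list were 0.36 and 0.36. Nolc1, a nucleolar scaffold and 1 of these 2, rose by 0.84 ± 0.12 in shMap3k7 (edgeR adjusted p = 0.0030) and 0.83 ± 0.10 in shDouble (0.0006). In shChd1, Nhp2, of the particles that guide pseudouridylation, fell by 0.77 ± 0.14 (edgeR adjusted p = 0.0309), Bop1 by 0.58 (0.0358), Nop2 by 0.75 (0.0377) and Rrp9 by 0.80 (0.0385). The ribosomal protein genes themselves had a median of -0.01 in that comparison. Both shChd1 libraries are line 4. With the Chd1 hairpins compared within a line, 0 of the 41 factors were called and their median was -0.08, where 0.0279% of all genes were called.

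The proteins of the mitochondrial ribosome form a separate set of genes, 77 of which were tested. In shMap3k7 6 rose and 0 fell (median 0.17), in shDouble 16 rose and 0 fell (median 0.18), and in shChd1 0 passed (median -0.15). Of all genes, 4.86% were called higher in shMap3k7, 10.2% higher in shDouble and 2.91% in either direction in shChd1. Compared within a line, the Chd1 hairpins gave 0 calls in this set and a median of -0.01. Mrpl11 rose by 0.59 in shDouble and 0.52 in shMap3k7 (edgeR adjusted p = 0.0021 and 0.0159), and Mrpl9 by 0.54 and 0.46 (0.0013 and 0.0128). Of the called genes, 3 of the 6 in shMap3k7 and 5 of the 16 in shDouble lay on chromosome 19, Mrpl11 among them. Of 17 genes of mTOR signalling and LARP1, 0 passed in shMap3k7. In shDouble, Larp1, whose protein binds the 5′ TOP, rose by 0.35 ± 0.07 (edgeR adjusted p = 0.0083), Eif4e, the cap-binding factor, by 0.34 (0.0275), and Tsc2, an inhibitor of mTOR signalling, fell by 0.41 (0.0253). In shChd1 only Myc, a transcription factor that drives ribosome production, passed, and it fell by 1.04 ± 0.20 (edgeR adjusted p = 0.0354). With Chd1 hairpins compared within a line, 0 of the 17 genes passed.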

How the data were processed

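Messenger RNA of 11 libraries of WFU3 cells was selected on oligo(dT) beads and primed with random hexamers, per the labels' protocols. The authors deposited a raw table of expected counts per gene, that is, read counts estimated by RSEM 1.3.1 after Bowtie2 on GRCm38, per the submitters' processing notes, with limma as a further tool. Which annotation was counted, and with what strand setting, is not given in the sources used here. RSEM divides reads among similar sequences, so genes with near-identical pseudogenes depend on that division, and overlapping or antisense genes may share reads. Per library, 7.83% to 9.11% of values had a fractional part, and 23412 of 48299 genes were at 0 throughout; 25 symbols had turned into dates.

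Counts were rounded to whole numbers. Genes were kept by filterByExpr (minimum count 10, minimum total 15), which left 14346, with at most 0.117% of any library's counts lost. edgeR 4.0.16 in R 4.3.3 gave TMM factors, 1 mean per group over all 11 libraries and the quasi-likelihood F-test, with Benjamini-Hochberg adjustment over all genes tested and calls at an adjusted p under 0.05. The effect of the Chd1 hairpins within a line was fitted with the line as a block. The labels tie libraries through their line; replicate numbers were given in accession order and pair nothing. DESeq2 1.42.0 and the other settings listed in the closing section were alternatives, and the procedure was tested on simulated data. Coordinates and transcripts are those of GENCODE M21 (GRCm38); pseudogenes were matched with BLAST 2.17.0 at 90% identity over 50% of the coding sequence. Lengths were those of the annotated transcripts. Means are given ± SD and log2 fold changes ± SE.

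The genes named were every member called where at most 12 were called, otherwise the 5 largest called changes in each direction; the 3 highest and 3 lowest per kilobase of each subunit; members with a role of their own; paralogs; the members nearest to a call in the interaction; up to 4 called genes of each related list; and Map3k7 and Chd1. Rpl3-ps1, Gm12191 and the other pseudogenes were chosen after their values were seen. Some genes that the rule names are not reported here, though the counts include them. Members and lists were chosen with earlier results of these data known.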

Additional observations from a re-analysis of the deposited data

Results flagged for a closer look

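Taken as a median, the 14 ribosomal protein genes of chromosome 7 lay on opposite sides of the shControl mean in the 2 Map3k7 clones. Their median log2 departure from the shControl mean was 0.0782 in shMap3k7 replicate 1 and 0.0398 and 0.0355 in shDouble replicates 1 and 2, all of clone 1. It was -0.138 in shMap3k7 replicate 2 and -0.088 and -0.162 in shDouble replicates 3 and 4, all of clone 7. Of the 14 genes, 12 were lower in all clone 7 libraries than in all clone 1 libraries, and 1, Rps13, was higher in all. The copy Rps13-ps1 held 53.4% to 54.3% of the counts of Rps13 and this copy in clone 1 and 35.8% to 36.8% in clone 7. The difference between the clones was not tested.

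The pseudogene Rps6-ps4, which lies outside the 77 genes, had a count of 469 in shDouble replicate 2 and 0 in every other library, the controls included.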

How the results depend on the processing

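Of the values of single named genes under an alternative setting, 486 of 591 kept their direction and their side of the threshold, 92 lost the call, 13 gained it and 0 turned round. The median log2 fold change of the 77 genes stayed between 0.145 and 0.241 in shMap3k7, 0.0891 and 0.282 in shDouble and -0.0422 and 0.0462 in shChd1. The 6 calls of shMap3k7 were 12 with DESeq2 (15.6%) and 0 with only the compared groups in the fit. Of all genes, 4.42% and 0.311% were called higher in these fits. A single Map3k7 clone leaves 1 shMap3k7 library, and the median of the members was then 0.145 for clone 1 and 0.241 for clone 7. Leaving out 1 library gave 0 to 7 calls, with 0 without shMap3k7 replicate 1 and 3 without replicate 2. The 13 calls of shDouble were 4 with clone 1 alone (5.19%), 29 with clone 7 alone (37.7%) and 6 with only the compared groups (7.79%). Of all genes, 4.94%, 8.37% and 7.77% were called higher in these fits. The count in shDouble was 6 to 17 with 1 library left out. It was 6 without shControl replicate 2 or shDouble replicate 3, and 7 without shDouble replicate 4 or either shChd1 library. The single call of shChd1 was 7 with DESeq2 (9.09%) and 2 with no filter (2.6%), where 6.75% and 2.75% of all genes were called. It was 0 with the line as a replicate block, only the compared groups, upper-quartile factors, or pseudogenes added by name or by sequence. With 1 library left out it was 0 to 6, with 6 (7.79%) without shControl replicate 2, where 18.7% of all genes were called. The 26 calls of shDouble against shChd1 were 16 with clone 1 alone, 15 with no filter, 17 with upper-quartile factors and 8 to 26 with 1 library left out, with 8 or 9 without a shChd1 library and 16 without shDouble replicate 3 or 4. With clone 1 alone 20.8% of the members were called in that comparison, where 37.9% of all genes were. The shares were 19.5% and 24.1% with no filter, and 22.1% and 44.6% with upper-quartile factors. The interaction had 1 call with DESeq2 and 0 to 2 with 1 library left out, with 2 without shControl replicate 2. For shDouble against shMap3k7 and the within-line effect the counts were 0 to 0. The small subunit median less the large was 0.04 in shMap3k7, -0.0257 with clone 1 alone, 0.00656 with sequence-matched pseudogenes added and -0.0260 to 0.0463 with 1 library left out. In shDouble it was -0.0393 with clone 1 alone and -0.0205 to 0.0161 with 1 library left out, and in shChd1 -0.0602 with the line as a replicate block and -0.0343 to 0.0428 with 1 library left out. The line as a block was also run for shDouble against shMap3k7 and the interaction, where it left 0 members called. Adding pseudogenes matched by sequence was chosen after seeing the data. The cause of these shifts was not tested. Rpl3 passed in 7 of 22 alternative settings in shMap3k7 and 10 of 22 in shDouble, and Rpl27 in shChd1 in 6 of 21; Rps29 passed in 19 and 22 of 22. Depth limited no result here, since each member had at least 504 counts in every library; the division of reads with pseudogenes limits those with large copies.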
